A study of Homo sapiens with 4 samples.

Results

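The 46 genes described here encode proteins that act in G2 and mitosis: cyclins and their kinase, the Aurora and Polo kinases, kinetochore and spindle proteins, mitotic kinesins and the machinery of anaphase and cytokinesis. They were taken as a list of gene symbols, and each was read from its brightest probe set assigned to a single gene, the one with the highest mean log2 signal. All 46 were found among the 19775 genes of the arrays, and all 46 passed the filter on dim signals that 12103 genes passed. Expression was measured in U87TR-Da, which is derived from U87MG human glioblastoma cells and carries DACH1, a nuclear repressor of transcription, under control of doxycycline. The 4 groups, with 1 array each, were DACH1-induced and DACH1-silenced cells in Neurobasal without serum, given EGF and bFGF together with the B-27 and N-2 supplements, and DACH1-induced and DACH1-silenced cells in DMEM with 10% FBS. The label protocols give 1 µg/mL doxycycline for 72 h for every sample, the silenced ones included, so how the silenced cells were kept without DACH1 is not given in the sources used here. A derived line may be a single clone, which the labels do not state, and no group has a second culture.

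Passage through G2 into mitosis depends on CDK1 bound to cyclins A and B, which CDC25 phosphatases switch on. Many of the genes that act afterwards are transcribed late in the cycle by FOXM1 and by MYBL2 with the MuvB complex, and in quiescent cells the DREAM complex, which shares MuvB, represses them. Their transcripts are therefore low in cells that do not divide and high in dividing tumour cells, and several of them serve as markers of proliferation.

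MuvB complexes bind a promoter word called the CHR, and NF-Y binds CCAAT boxes next to it, so the promoters of the members were searched for both. The windows were RefSeq's on GRCh38.p14, 250 bases before to 50 bases after each annotated start, and 40 of the 46 members matched by symbol, with 50 windows. The CHR was searched as TTTGAA or TTTAAA, the CCAAT box as CCAAT and the E2F word as TTTCGCGC or TTTGGCGC, each on both strands, and words may share bases. A CHR word stood in 80% of the members' windows, against 17.8% of the windows of all tested genes and 24.0% of all windows in the table. A CCAAT word stood in 76% of the members' windows, against 34.8% for tested genes and 34.6% for all windows. The E2F word, which marks many genes of DNA replication, was in 8% of the members' windows and 30% of those of 25 S phase genes, against 1.76% for tested genes. For the S phase genes the CHR share was 13.3% and the CCAAT share 66.7%, and for the other G2 and mitosis genes they were 55.3% and 68.4%. The differences between lists were not tested. The members' windows had a median GC content of 61.3%, against 64.3% for tested genes and 58.7% for all windows. The shares were not adjusted for GC content. Of the 64 CHR matches, 36 began within 100 bases before the start and 10 lay after it. A match is a description of letters and not a bound site.

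The stretches shown are the 150 bases before the start for the members with a CHR that differed most between the media, KIF20A, CDCA8, MKI67 and ANLN, and for ECT2, which differed least. Capitals mark CHR and CCAAT words that lie whole in the stretch, read in the direction of transcription.
KIF20A (chr5:138178962-138179111, plus strand): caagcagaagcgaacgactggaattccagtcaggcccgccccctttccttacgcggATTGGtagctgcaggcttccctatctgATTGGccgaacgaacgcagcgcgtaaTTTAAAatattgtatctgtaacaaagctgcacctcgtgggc
CDCA8 (chr1:37692366-37692515, plus strand): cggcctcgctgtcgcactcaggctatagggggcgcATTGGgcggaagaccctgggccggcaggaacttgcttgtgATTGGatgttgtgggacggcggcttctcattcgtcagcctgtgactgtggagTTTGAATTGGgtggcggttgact
MKI67 (chr10:128126424-128126573, minus strand): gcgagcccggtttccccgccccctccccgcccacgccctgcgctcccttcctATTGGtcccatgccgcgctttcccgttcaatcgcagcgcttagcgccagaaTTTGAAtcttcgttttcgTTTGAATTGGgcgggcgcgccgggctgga
ANLN (chr7:36389712-36389861, plus strand): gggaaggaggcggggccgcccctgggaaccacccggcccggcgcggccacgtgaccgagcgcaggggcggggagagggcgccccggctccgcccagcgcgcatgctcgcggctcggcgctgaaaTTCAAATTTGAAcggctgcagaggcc
ECT2 (chr3:172750576-172750725, plus strand): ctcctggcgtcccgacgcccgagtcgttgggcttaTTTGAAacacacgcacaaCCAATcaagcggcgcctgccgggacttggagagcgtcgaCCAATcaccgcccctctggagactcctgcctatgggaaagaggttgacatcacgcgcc
In KIF20A a single CHR began 41 bases before the start, downstream of CCAAT words on the opposite strand at 94 and 67. In CDCA8 a CHR at 23 bases shared 1 base with a CCAAT word at 18, and further CCAAT words stood at 115 and 75. In MKI67 the same pair stood at 29 and 24, with a second CHR at 47 and a CCAAT word at 98. ANLN held a CHR on each strand, at 26 and 20 bases, and no CCAAT word in its window. The CHR of ECT2 in the stretch shown lay farther away, at 115 bases, with CCAAT words at 97 and 58, and another CHR of the same window began 34 bases after the start. The windows of AURKB, BUB1, CCNA2 and NEK2 held no CHR word in the forms searched, and other forms of the CHR were not searched. These genes differed between the media by 1.51 to 2.23 on the log2 scale. The 36 members with the word spanned 0.46 to 3.07, with a median of 1.82, a range that includes the values of the other 4.

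**Figure D1:**
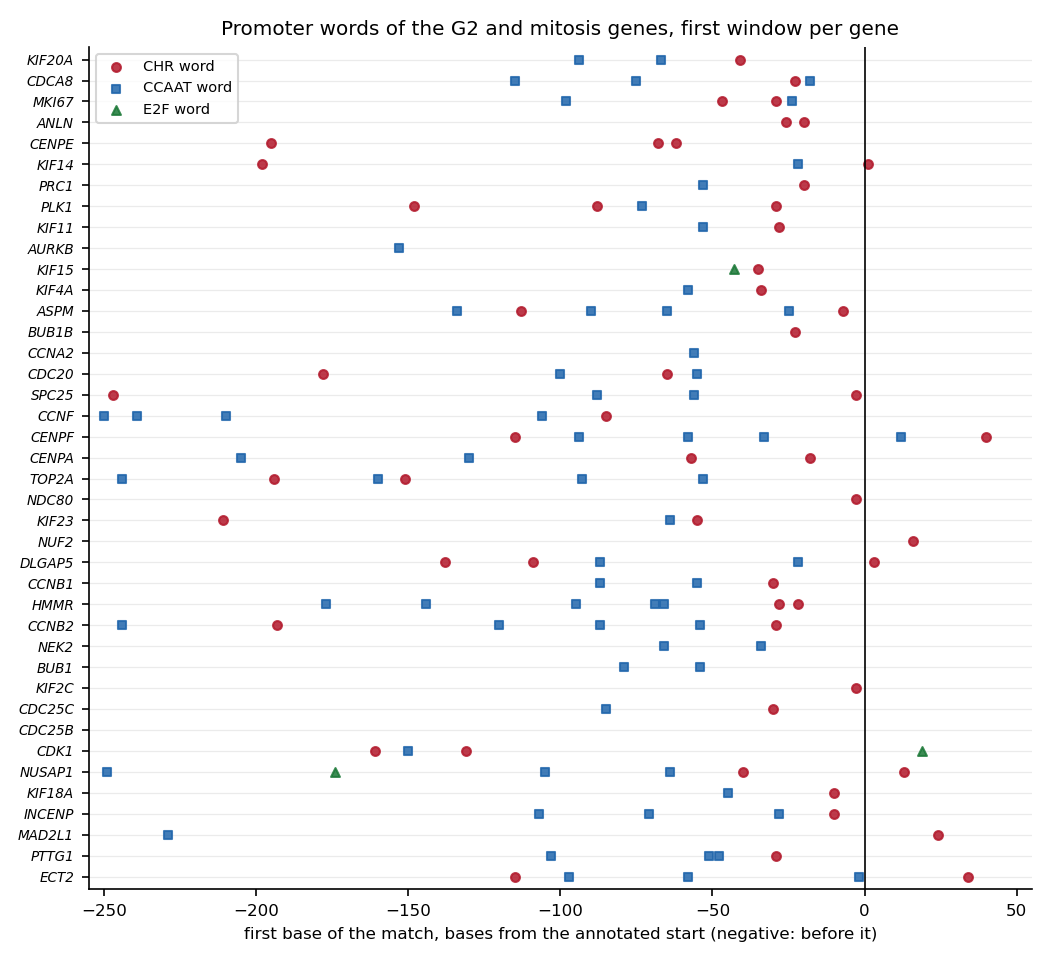
Positions of the CHR, CCAAT and E2F words in the first promoter window of the 40 members that have one, in bases from the annotated start (vertical line, 0), with genes ordered by their difference between the media, the highest at the top. CHR words (circles) gather just before the start, where 36 of all 64 matches lie within 100 bases, and CCAAT words (squares) lie mostly upstream of them.

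The arrays had a common scale, with 2% trimmed means of 99.63 to 99.65 and median signals of 15.7 to 19.3. DACH1 read 875.1 in induced and 32.5 in silenced cells labelled serum-free, and 4431 in induced and 126.0 in silenced cells labelled serum. By this brightest probe set the induction matched the labels. Another DACH1 probe set read 8.3 or less on every array. The remaining set read 2.9 in induced and 12.1 in silenced cells labelled serum-free, and 24.7 and 23.1 labelled serum. Neither showed the induction. The line expressed VIM and CD44, at 4213.6 or more on every array, but the glial markers GFAP, S100B, SOX2 and AQP4 were below 10.9, the floor set on signals, on all 4 arrays. Of the other glial and neural markers, NES read 19.6 to 35.8. OLIG2 read 12.3 and 12.2 labelled serum-free, against 79.9 and 58.4 labelled serum. SLC1A3 read 104.1 and 158.0, against 12.8 and 135.0, the low value being that of induced cells labelled serum. Of 9 markers of other cell types named on the array, 2 passed the filter on dim signals. Serum is known to induce targets of serum response factor and YAP. Of 10 such targets tested, 7 rose labelled serum-free and 1 fell, where 15.4% of all 12103 tested genes rose and 12.7% fell. ACTA2, among the 7, read 1806.5 and 3112.6, against 208.1 and 477.1 labelled serum. The 1 that fell was SRF, the gene of serum response factor itself, at 52.7 and 45.3 against 88.1 and 117.1 (limma adjusted p 0.0456). Of 12 immediate early genes, which serum also induces, 6 fell labelled serum-free and 0 rose. Among the 6, EGR1 read 38.0 and 66.4 against 1570.8 and 1284.3 (limma adjusted p under 0.05 for each call). Because the direction of the 7 targets runs against the names, the media are called labelled serum-free and labelled serum here. Whether the names are right was not tested.

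Nearly all of the 46 members were called higher in the arrays labelled serum-free. In a limma fit with medium and DACH1 state as terms, 44 of 46 members rose and 0 fell at an adjusted p of 0.05, where 15.4% of all 12103 genes rose and 12.7% fell. The median member was 3.53-fold higher (log2 difference 1.82), beside 0.02 for all tested genes and 0.41 for 11 housekeeping genes. Taking each DACH1 state alone, 40 of 46 members were at least 2-fold higher in induced cells and 44 of 46 in silenced cells, against 14% and 15.3% of genes. For all 46 members both arrays labelled serum-free lay above both labelled serum, which held for 37.4% of tested genes. The median signal of the members was 446 in induced and 482 in silenced cells labelled serum-free, against 143 and 109 labelled serum. In RNA from whole cultures, more dividing cells and more transcript per dividing cell cannot be told apart. The fit has 1 residual degree of freedom and takes its error from the interaction of medium and DACH1 in single arrays. Nothing says that arrays came from separate cultures, so the p-values cover these 4 RNA samples alone. The calls also depend on the processing. Without the filter on dim signals 0 members and 0 genes passed, and with arrays centred on housekeeping genes 36 members did. When medium was the only term, 44 members rose with all 4 arrays and 41 without either array labelled serum, but 0 without either array labelled serum-free.

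**Figure D2:**
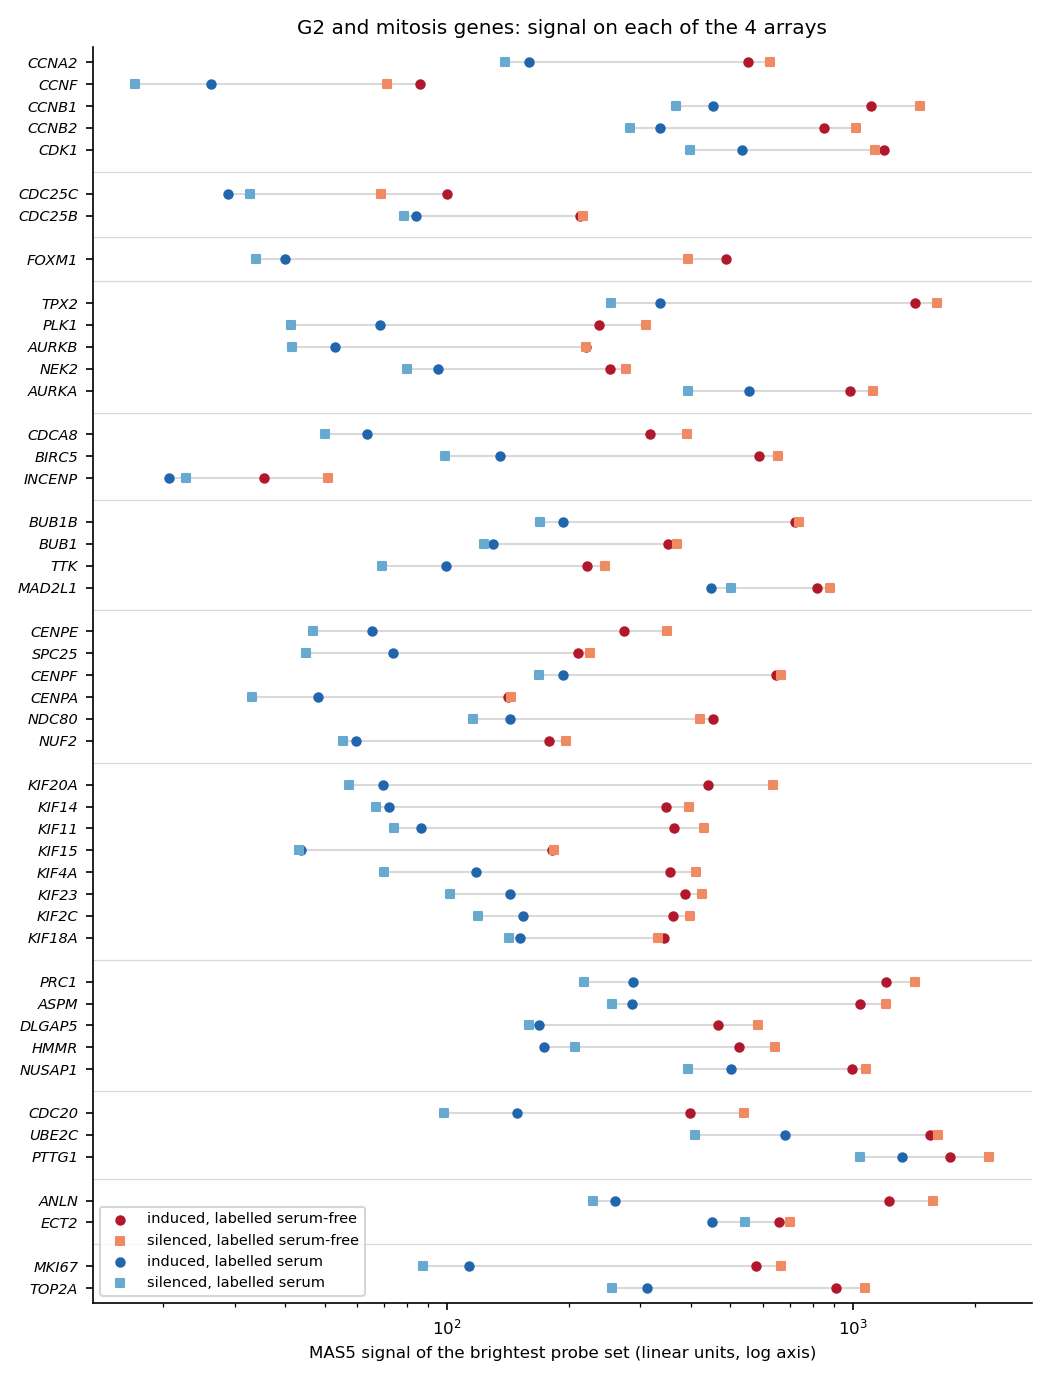
MAS5 signals (linear units on a log axis) of the 46 members on each array, grouped by role between grey lines. The arrays labelled serum-free (red and orange) lie to the right of those labelled serum (dark and light blue) in every row, and circles mark induced and squares silenced cells.

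FOXM1, the transcription factor that drives many of the other members, differed most. It read 488.5 in induced and 392.4 in silenced cells labelled serum-free, against 40 and 33.8 labelled serum. The difference was 11.9-fold (log2 3.57, SE 0.18, limma adjusted p 0.0167) and ranked 24 among the 12103 genes. It was also of nearly the same size in induced cells, 12.2-fold, and in silenced cells, 11.6-fold. FOXM1 has a single probe set here, of the _x_at kind that can pick up related transcripts.

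Among the cyclins and CDK1 all 5 rose, by 1.34 to 1.98 on the log2 scale. CCNA2, which encodes cyclin A2, read 553.3 and 627.2 labelled serum-free, against 159.3 and 139.4 labelled serum (3.95-fold, limma adjusted p 0.0188). CCNB1, the cyclin B1 gene, read 1110.0 and 1465.4, against 451.7 and 366.8. Its kinase CDK1 read 1196.1 and 1135.6, against 534.6 and 398.1, a 2.53-fold difference. CCNB2 was 3.02-fold higher by its brightest probe set, while a dim second probe set went the other way, at 33.0 and 38.7 against 76.0 and 78.4, and with the mean of its probe sets the log2 difference was 0.08 (limma adjusted p 0.729). CCNF, which encodes the substrate adaptor of an SCF ubiquitin ligase, was dim but separate, at 85.9 and 71.1 against 26.3 and 17.1. The phosphatase genes that activate CDK1 also rose. CDC25B was 2.64-fold higher and CDC25C 2.70-fold higher, at 99.9 and 69.0 against 28.9 and 32.8. With arrays centred on housekeeping genes CDK1, CDC25B and CDC25C did not pass (limma adjusted p 0.0893, 0.0651 and 0.056), nor did KIF18A, NUSAP1, AURKA, INCENP and MAD2L1 (0.165, 0.148, 0.187, 0.371 and 0.53).

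Of the kinases that build the spindle, PLK1, the Polo kinase gene, and AURKB, the kinase of the chromosomal passenger complex, had larger differences than AURKA, the centrosomal Aurora kinase. PLK1 read 237.2 and 310.1 labelled serum-free and 68.4 and 41.3 labelled serum (5.10-fold, SE of the log2 difference 0.33, limma adjusted p 0.0236). AURKB read 219.7 on both arrays labelled serum-free, against 53.0 and 41.5 (4.68-fold). AURKA read 983.1 and 1123.8, against 556.0 and 393.5, only 2.25-fold higher, although TPX2, which activates AURKA on the spindle, was 5.21-fold higher. The AURKA call was close to the threshold (limma adjusted p 0.0414) and ran from 0.0143 to 0.294 over the alternatives, among them 0.185 without the probe set kinds that can share sequence with other genes. NEK2, a centrosome kinase gene, was 3.04-fold higher. The partners of AURKB were uneven too. CDCA8, which encodes borealin, and BIRC5, which encodes survivin, were 6.24-fold and 5.37-fold higher, while INCENP, the scaffold of the complex, read only 35.5 and 50.9 against 20.7 and 22.8, a 1.96-fold difference at low signal. The INCENP call (limma adjusted p 0.0396) ran from 0.0221 to 0.371 over the alternatives, and did not hold with quantile normalization (0.0558).

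All 4 spindle checkpoint genes rose, but over a wide range. BUB1B, which encodes BubR1, was 4.04-fold higher, at 722.9 and 738.9 against 193.1 and 169.7. BUB1 was 2.84-fold and TTK, the MPS1 kinase gene, 2.80-fold higher. MAD2L1, whose product holds back CDC20 until chromosomes are attached, was 1.79-fold higher, at 818.0 and 879.3 against 448.9 and 500.4 (limma adjusted p 0.0409, and 0.0125 to 0.53 over the alternatives). The 6 kinetochore and centromere genes were closer together, between 1.71 and 2.48 on the log2 scale, and all rose. CENPE, a kinetochore motor gene, stood at the top of them with 5.58-fold, at 273.0 and 348.6 against 65.3 and 46.8. CENPF was 3.63-fold higher and CENPA, the centromeric histone gene, 3.56-fold higher. The NDC80 complex, which grips microtubules, had 3 members in the list: SPC25 (3.78-fold), NDC80 (3.38-fold) and NUF2 (3.26-fold), with log2 differences no farther apart than 1 SE of SPC25 (0.27).

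All 8 mitotic kinesin genes rose, by 1.20 to 3.07 on the log2 scale. KIF20A, a motor of the central spindle and cytokinesis, read 440.9 and 636.3 labelled serum-free and 69.6 and 57.4 labelled serum (8.38-fold, SE of the log2 difference 0.27, limma adjusted p 0.0170). KIF14, another cytokinesis motor, was 5.33-fold higher, and KIF11, which separates the spindle poles, 4.95-fold. At the other end stood KIF18A, which dampens chromosome oscillation, with 342.9 and 332.3 against 151.9 and 142.2 (2.30-fold). KIF15, KIF4A, KIF23 and KIF2C lay between, at 4.20-fold, 4.19-fold, 3.36-fold and 2.78-fold. Among spindle and microtubule binding genes, PRC1, which bundles the central spindle and carries KIF4A, was 5.24-fold higher, at 1210.1 and 1422.6 against 287.4 and 218.2. ASPM, a spindle pole gene, was 4.15-fold, DLGAP5 3.18-fold, HMMR 3.06-fold and NUSAP1 2.34-fold higher.

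MKI67, the gene of the proliferation antigen that coats mitotic chromosomes, read 576.8 and 666.4 against 113.3 and 87.3 (6.23-fold, limma adjusted p 0.0170). It has 4 probe sets, with log2 differences of 2.12 to 2.64. TOP2A, the topoisomerase that untangles sister chromatids, was 3.50-fold higher, at 907.5 and 1072.3 against 311.2 and 255.2. ANLN, which encodes the cytokinetic scaffold anillin, rose 5.73-fold, at 1232.5 and 1576.9 against 259.0 and 228.7.

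CDC20, the mitotic activator of the ubiquitin ligase APC/C, was 3.83-fold higher, at 397.9 and 540.9 against 148.9 and 98.5, and UBE2C, its ubiquitin-conjugating enzyme, was 3-fold higher. The 2 members that did not pass were PTTG1 and ECT2. PTTG1, which encodes securin, a substrate of APC/C, read 1738.8 and 2171.5 labelled serum-free and 1322.0 and 1040.2 labelled serum (log2 difference 0.73, SE 0.24, limma adjusted p 0.0964, and 0.0433 to 0.685 over the alternatives). ECT2, the exchange factor that activates RhoA in cytokinesis, read 658.6 and 701.8, against 451.5 and 541.9 (0.46, SE 0.18, adjusted p 0.134). Their groups did not overlap either. Of the 86 probe sets of the members, 80 had both arrays labelled serum-free above both labelled serum, 1 had both below and 5 overlapped. The 1 below is that of CCNB2 given above, and of 71 probe sets that reached a signal of 50 on any array, 69 had both above.

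**Figure D3:**
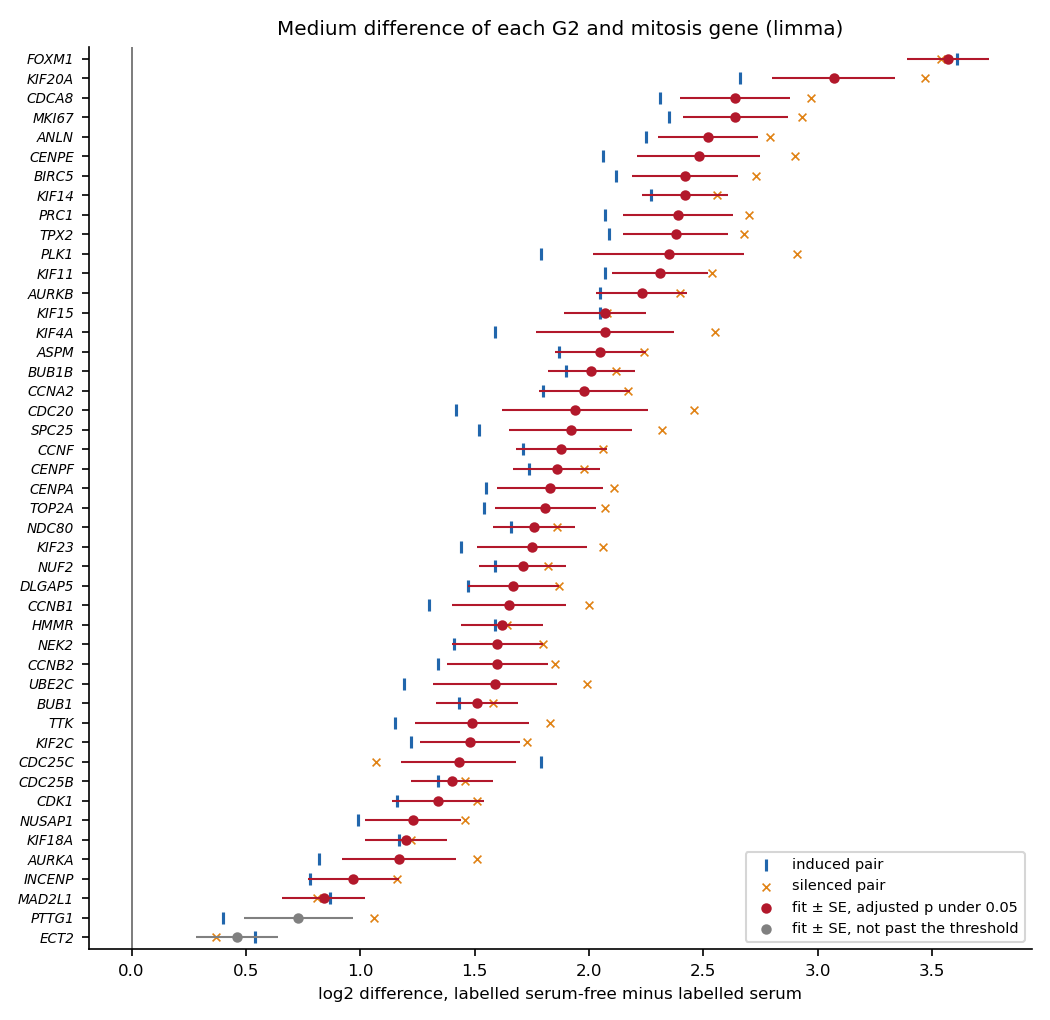
Log2 difference between the media (labelled serum-free minus labelled serum) for each member, as the limma estimate with its SE (red where the adjusted p was under 0.05, grey otherwise) and as the differences in induced cells (bars) and silenced cells (crosses). All 46 estimates lie above 0, from 0.46 for ECT2 to 3.57 for FOXM1, and 42 members have the larger difference in silenced cells.

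No member was called for DACH1 state. In the limma fit 0 of 46 members and 0 of 12103 genes passed an adjusted p of 0.05 for DACH1 state. DACH1 itself did not pass either, though it was 26.9-fold higher in induced cells labelled serum-free and 35.2-fold labelled serum. The lack of calls thus says little about the members. In the same limma fit 0 members had an unadjusted p under 0.05, against 4.83% of all genes and 1.83% of genes of mean signal 100 or more. No member differed 2-fold between induced and silenced cells in either medium. Of all genes, 1.02% were 2-fold higher and 2.72% lower labelled serum-free, and 2.91% and 4.77% labelled serum. For genes of mean signal 100 or more these shares were 0.0688% and 0.0826% labelled serum-free, and 2.01% and 3.04% labelled serum. The signs were not spread evenly. Labelled serum-free, 39 of 46 were lower in induced cells, 6 were higher and AURKB was equal, with a median of -0.15, against 50.4% of all genes below 0, 49.5% above 0 and a median of 0. Labelled serum, 41 of 46 members were higher in induced cells, with a median log2 difference of 0.29, against 50.7% of all genes and a median of 0.01, and 5 were lower, against 49.2%. The scaling turned the sign of the median labelled serum-free, while the median labelled serum stayed above 0. With arrays centred on housekeeping genes, 35 members were above 0 labelled serum-free and 28 labelled serum. Their medians were 0.11 and 0.07, beside 0.27 and -0.21 for all tested genes. Without this centring, housekeeping genes had medians of -0.17 labelled serum-free and 0.06 labelled serum. Neither pair has a replicate, and the members share the same 4 RNA samples, so their number adds no replication.

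KIF4A, which condenses chromosomes and works with PRC1, had the largest difference labelled serum, at 118.0 in induced and 70.1 in silenced cells, 1.68-fold higher. UBE2C read 1549.9 in induced and 1622.2 in silenced cells labelled serum-free, and 681.2 and 409.6 labelled serum (1.66-fold higher). PLK1 read 237.2 in induced and 310.1 in silenced cells labelled serum-free, and 68.4 and 41.3 labelled serum. The sign of PLK1 and of 34 other members was thus below 0 labelled serum-free and above 0 labelled serum, a pattern seen in 35 of 46 members and 23.4% of all genes. Another 5 members were above 0 in both media, against 26.7%, and 4 below 0 in both, against 24.4%. Labelled serum-free, KIF20A was lowest, at 440.9 in induced and 636.3 in silenced cells (1.44-fold lower), followed by INCENP at 35.5 and 50.9. CDC25C went the other way, at 99.9 in induced and 69.0 in silenced cells, but a dimmer probe set of it read 33.4 and 36.2. Besides CDC25C, the members above 0 labelled serum-free were FOXM1 (0.32), CCNF (0.27), NDC80 (0.11), CDK1 (0.07) and KIF18A (0.05), in log2 difference. The dimmer probe sets of CDK1 (-0.30, -0.30 and -0.31) and of CCNF (-0.29) were below 0. Of 20 members with several probe sets that reached a signal of 50, all sets had one sign in 18 labelled serum-free and 13 labelled serum. Labelled serum, the 5 members below 0 were ECT2 (-0.26), HMMR (-0.25), CDC25C (-0.18), MAD2L1 (-0.16) and INCENP (-0.14). Dimmer probe sets of ECT2 (0.23 and 0.15), HMMR (0.22), CDC25C (0.3) and MAD2L1 (0.01) were above 0 there, and another of MAD2L1 was at -0.41.

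How far the DACH1 difference shifted between the media was described by subtracting the 2 log2 differences. It was below 0, that is, lower labelled serum-free, for 42 of 46 members, with a median of -0.47, against 51.3% of all genes and a median of -0.01. PLK1 (-1.11) and CDC20 (-1.04) were the members at -1 or less, a size that 4.76% of all genes reached. Of genes of mean signal 100 or more, 2.14% reached it. The same subtraction read the other way says that the medium difference was larger in silenced cells, with a median of 3.01-fold for the induced and 4.17-fold for the silenced pair. No array is left to test it, and it depends on the scale: when arrays were centred on the housekeeping genes the median became 0.02. That centring moved the median DACH1 difference of all tested genes to 0.27 labelled serum-free and -0.21 labelled serum, beside 0.11 and 0.07 for the members.

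**Figure D4:**
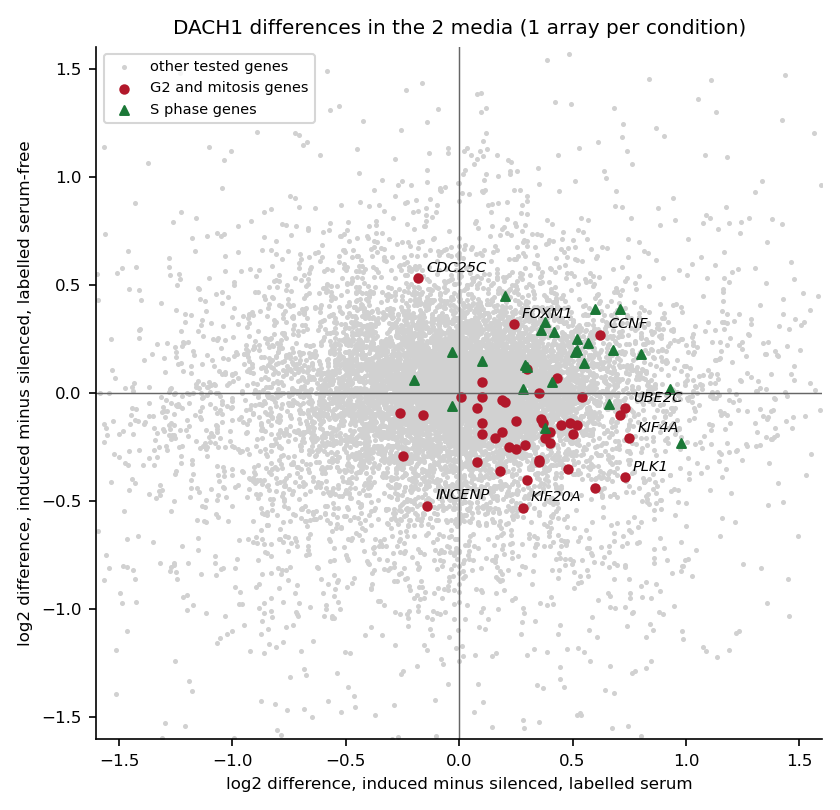
Log2 differences between induced and silenced cells, labelled serum on the horizontal and labelled serum-free on the vertical axis, for tested genes within 1.6 of 0 (grey), the 46 members (circles) and 25 S phase genes (triangles). Most members lie right of 0 and below 0 (35 of 46), while most S phase genes lie right of 0 and above 0.

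Genes of the same pathway outside the members were read from lists. Of 40 other G2 and mitosis genes tested, 32 rose and 0 fell in the arrays labelled serum-free, with a median of 1.81. Among them CENPI, a centromere gene, read 189.0 and 166.3 against 26.9 and 18.7 (7.90-fold), and KNL1, the scaffold that recruits BUB1, rose 7.14-fold. CKS1B and CKS2, which bind CDK1, did not pass (log2 differences 0.29 and 0.51). Condensin, which compacts mitotic chromosomes, had 6 of 8 subunit genes higher, with NCAPH 5.03-fold and NCAPG 4.37-fold higher, while SMC2 read 605.2 and 618.1 against 398.0 and 1387.8. Cohesin, which holds sister chromatids together, and APC/C were near the share of all tested genes that rose, 15.4%. Of 9 cohesin genes 1 rose, SMC1A (11.1%), and of 14 APC/C genes 2 rose (14.3%) and 2 fell, with medians of -0.12 and -0.07. The APC/C subunit gene ANAPC10 fell, at 138.7 and 127.1 against 307.2 and 341.3. Of 13 checkpoint and kinetochore genes known for little cycling, 0 rose and 3 fell in limma, where 12.7% of all tested genes fell. DSN1 and CENPB were higher with unadjusted limma p of 0.0322 and 0.0169, and did not pass.

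Of 12 MuvB, DREAM and MYBL2 genes 3 rose (25%) and 2 fell, where 15.4% of all tested genes rose and 12.7% fell. MYBL2, which opens the late wave of transcription with MuvB, read 256.7 and 218.5 labelled serum-free and 27.6 and 5.4 labelled serum, so the induced cells differed 9.30-fold and the silenced cells at least 20.0-fold, since 5.4 lies under the floor. The MuvB subunit genes LIN37, LIN54 and LIN9 did not pass, LIN52 fell (log2 difference -1.15), and so did TFDP2 (-0.82). TFDP1, an E2F partner like TFDP2, rose 3.03-fold. The pocket proteins of DREAM differed in sign. RBL1 rose, at 143.3 and 150 against 88.6 and 61.3 (limma adjusted p 0.0488), while RBL2 read 419.4 and 451.6 against 593.9 and 825.7 without passing (limma adjusted p 0.0737). Of 9 CDK1 inhibitors and G2 brakes 3 rose (33.3%) and 2 fell, against the same shares of all tested genes, 15.4% and 12.7%. CDKN1A, the p21 gene, was 2.77-fold lower and GADD45A 3.45-fold lower, while PKMYT1, a kinase that inhibits CDK1 and is itself expressed with the cycle, rose 3.38-fold. GADD45B, of the same family as GADD45A, rose 2.19-fold, and FBXO5, the gene of an APC/C inhibitor, 1.83-fold. WEE1 did not pass, at 451.3 and 420.4 against 346.8 and 286.0.

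Of 25 S phase genes 18 rose, with a median of 1.21, where 15.4% of all tested genes rose. Whether that differs from the G2 and mitosis genes was not tested. For DACH1 state labelled serum-free, 6 of 46 members and 21 of 25 S phase genes were higher in induced cells, against 49.5% of all genes. Their medians were -0.15 and 0.18. Labelled serum, 41 of 46 and 22 of 25 were higher, against 50.7% of all genes, with medians of 0.29 and 0.42. These values rest on 1 array per condition, and the difference between the 2 lists was not tested. The ribonucleotide reductase gene RRM2 had the largest S phase difference between the media, at 2409.0 and 2826.2 against 725.2 and 367.9 (5.05-fold).

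**Figure D5:**
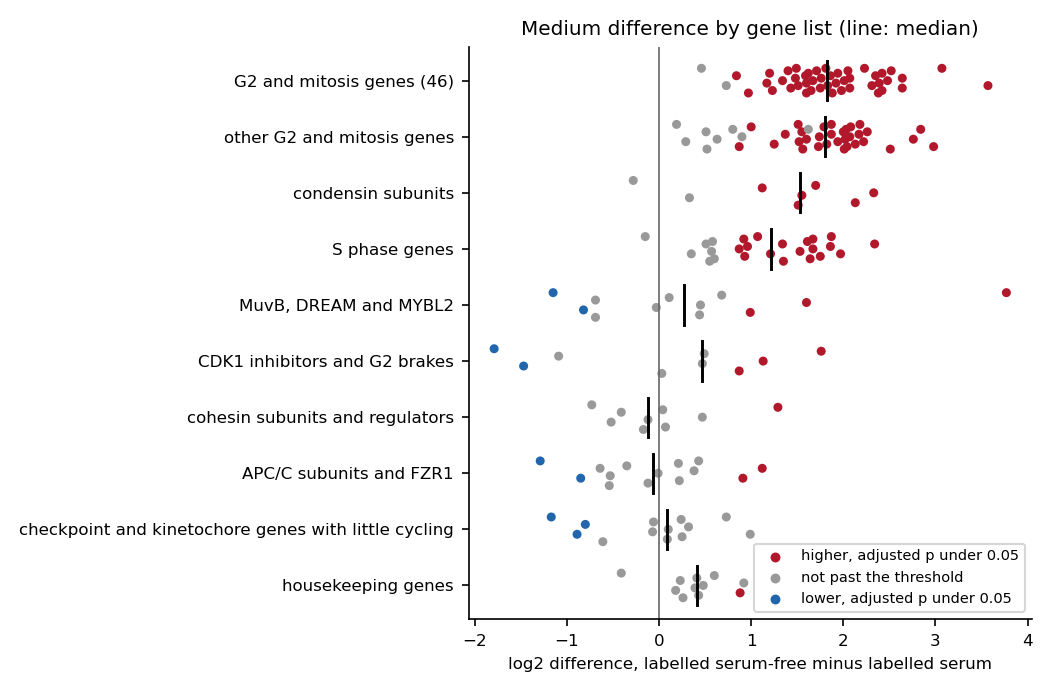
Log2 differences between the media (labelled serum-free minus labelled serum, limma) for the tested genes of each list, red where higher and blue where lower at an adjusted p under 0.05, with the median as a line. The G2 and mitosis genes (median 1.82) and the other genes of that phase (1.81) lie right of S phase genes (1.21), and cohesin (-0.12), APC/C (-0.07) and housekeeping genes (0.41) lie nearer 0.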

How the data were processed

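Total RNA (6 µg) was labelled and hybridised to 1 array per condition. The authors deposited linear MAS5 signals, an intensity for each probe set, per the submitters' processing notes. No MAS5 version or target intensity was given in the sources used here. Probe sets (54613) were named from GEO's platform annotation, with symbols updated through Entrez identifiers. Of these, 41091 had 1 gene, 1801 several, and 11721 were unnamed here.

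Signals below the 40th percentile were raised to its value, 10.9, and log2 was taken. A gene entered the limma fit (lmFit, eBayes, medium and DACH1 state as terms, Benjamini-Hochberg over all genes) if 2 arrays reached the median signal (17.2), and a pair of arrays if 1 did. SEs are those of the moderated fit, over 2 arrays against 2. Single pairs have no test, and all fold changes come from floored log2 signals. Array number limits the precision. The members and lists were chosen with earlier results of these data known. Of 210 listed genes outside the members, 15 were not named here. All members are named. From other lists came the 2 highest and lowest medium differences and the 2 furthest from 0 in each DACH1 pair, of which a part is given; ACTA2, EGR1, CKS1B, CKS2, ANAPC10, SMC1A, KNL1, NCAPG, DSN1, CENPB, the glial markers and the regulators were partly chosen after their values were seen. Alternatives were another normalization, floor, filter, probe set rule, variance prior or model, and each array left out. The software was limma 3.58.1 in R 4.3.3, with Python 3.11.15 for promoters and matplotlib 3.10.9 for figures.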

Additional observations from a re-analysis of the deposited data

Results flagged for a closer look

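The DACH1 difference of the G2 and mitosis genes had opposite signs in the 2 media: the median over the 46 genes was below 0 labelled serum-free and above 0 labelled serum, with a median difference of differences of -0.47. The difference was not tested, since each condition has 1 array. When arrays were centred on housekeeping genes the median difference of differences became 0.02. That centring also moved the DACH1 medians of all tested genes, to 0.27 labelled serum-free and -0.21 labelled serum. The 46 genes then had medians of 0.11 and 0.07.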

How the results depend on the processing

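Quantile normalization, a pseudocount in place of the floor, the mean of all probe sets, dropping _x_at and _s_at probe sets (33 members tested) and a trend in the prior variance left 32 to 44 members higher and 0 lower labelled serum-free. Without a floor 40 members stayed higher, with 1201 genes higher and 906 lower over all genes. Without a filter on dim signals 0 members and 0 genes passed in either direction, although the members' median stayed at 1.82; the cause was not tested. Centring on housekeeping genes moved the median medium difference of all tested genes to -0.48, against 0.02 without it. It left 36 members higher, with a median of 1.32, and over all genes 804 higher and 3257 lower by medium and 8 higher and 42 lower by DACH1 state. It turned the members' DACH1 median labelled serum-free to 0.11, with 35 members above 0 in that pair. The difference of differences became 0.02, with 22 members below 0. Over all tested genes the same centring moved the DACH1 medians to 0.27 labelled serum-free and -0.21 labelled serum. ECT2 alone changed sign between the media, to -0.04. With every array at or above the median signal, or with a trend in the prior variance, 1 gene was higher by DACH1 state. Leaving out each array in turn, the intact pair gave a median of 1.59 to 2.06. With medium as the only term and 1 array left out, 0 to 41 members, 0 to 1891 genes higher and 0 to 1557 genes lower passed, the 0 arising without either array labelled serum-free. A floor of 50 with 2 arrays at 100 or more, chosen after seeing the data, left 42 of 43 members higher. Over the planned settings, single members kept direction and side of the threshold in 338 cases, no longer passed in 60, of which 44 without a filter, and PTTG1 passed in 1. No paired analysis was possible because each group has 1 array and the labels carry no replicate numbers. No detection calls were used, so signals near the floor, as of INCENP and CCNF, were not checked against background.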
